A study of Mus musculus with 18 samples.

Results

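The 5 genes described here are Foxa1, Foxa2 and Foxa3, the FOXA family of forkhead transcription factors, with Nkx2-1 and Gata6, a homeobox and a zinc finger factor of the lung lineage. They were chosen by name, from 46078 genes counted in mouse lung tumors, and were followed tumor by tumor in RNA-seq, which counts transcripts. ATAC-seq, which reads where a transposase can cut open chromatin, was followed over the 53 of 111664 peaks that lay within 50000 bp of one of these genes. Of the 5 genes, 4 had enough counts to be tested.

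TKO mice are a model of small cell lung cancer in which Cre removes Rb1, Trp53 and another member of the retinoblastoma family (Rbl1 by the labels, Rbl1 or Rbl2 in different passages of the study). TKO;Carm1KO mice (CARM1 knockout) had a conditional allele of the arginine methyltransferase CARM1 as well, so that Cre removed both that gene and the tumor suppressors. TKO;NfibR388K mice (NFIB mutant) carried, from the germline on, a lysine in place of the arginine at which CARM1 methylates the transcription factor NFIB. Adenoviral Cre was instilled into the trachea at 8 weeks of age, and tumors were taken 28 weeks later, from 3 animals per genotype, so each assay had 3 libraries per genotype and 9 in all. All groups were of mixed C57BL/6;FVB129/N background with littermate controls. The Methods describe cells sorted for the tdTomato reporter that Cre switches on, the Results name biopsies, and for ATAC-seq cancer cell lines are named too, so the origin of the cells was not resolved. A virus given to the airway does not restrict Cre to 1 cell type.

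FOXA proteins are pioneer factors, able to bind their sites in closed chromatin, and Foxa1 and Foxa2 act together in the branching and differentiation of the lung epithelium. Nkx2-1 is the earliest known marker of lung fate in the foregut and switches on surfactant and airway secretory genes together with FOXA proteins. Gata6 acts in endoderm, in the distal lung epithelium and in mesoderm, and is not confined to epithelium. Foxa3 is best known from liver and gut.

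The promoters of the members on chromosome 12, where the largest differences in open chromatin lay, and 1 of the 3 RefSeq promoters of Foxa2 are shown first. Each is 250 bases before and 50 after a RefSeq start (GRCm38.p6), read 5′ to 3′ on the strand of the gene, which is the minus strand in all 3. Capitals mark the words searched for, on both strands. The word for forkhead factors was TGTTTAC, that for nuclear factor I was TTGGCA and that for GATA factors was AGATAA. For NKX2 factors the words CACTTGA and, taken by itself, CAAGTG were used. The last of these is the reverse complement of CACTTG, so the NKX2 words overlap.
Foxa1, chr12:57546062-57546361: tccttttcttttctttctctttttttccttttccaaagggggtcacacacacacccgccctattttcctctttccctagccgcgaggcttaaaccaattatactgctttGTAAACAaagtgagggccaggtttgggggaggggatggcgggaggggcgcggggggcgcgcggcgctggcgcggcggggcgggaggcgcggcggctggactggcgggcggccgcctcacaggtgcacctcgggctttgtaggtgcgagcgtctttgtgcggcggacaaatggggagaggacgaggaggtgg
Nkx2-1, chr12:56536859-56537158: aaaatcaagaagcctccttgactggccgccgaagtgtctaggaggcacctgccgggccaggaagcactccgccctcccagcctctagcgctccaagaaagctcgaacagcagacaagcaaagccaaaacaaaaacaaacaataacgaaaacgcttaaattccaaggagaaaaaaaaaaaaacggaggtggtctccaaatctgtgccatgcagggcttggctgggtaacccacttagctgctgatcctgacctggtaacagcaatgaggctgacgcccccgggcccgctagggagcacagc
Foxa2, chr2:148045415-148045714: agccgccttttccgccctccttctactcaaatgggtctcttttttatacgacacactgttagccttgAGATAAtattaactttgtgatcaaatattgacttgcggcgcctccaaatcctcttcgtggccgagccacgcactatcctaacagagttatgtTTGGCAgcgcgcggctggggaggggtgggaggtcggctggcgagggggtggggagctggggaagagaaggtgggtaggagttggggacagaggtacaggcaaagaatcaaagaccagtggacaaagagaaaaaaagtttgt
The Foxa1 promoter held 1 forkhead match, at position 110 of the window. This word was present in 3.65% of 32851 RefSeq promoters of mouse. The Foxa2 window held a nuclear factor I word at position 160, a word of 14.1% of the promoters, and a GATA match at position 68, found in 11.2%. None of the words occurred in the Nkx2-1 window. The windows of the other RefSeq starts of Foxa2 and of Foxa3, which are not shown, held none of them either. The RefSeq start of Foxa1 lies 805 bp downstream of the start of the gene in the annotation used for the counts, and this start of Foxa2 lies 1505 bp downstream.

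Gene counts came to 15848866 to 20915057 per library and peak counts to 26917178 to 47653979. Values are given as CPM, counts per 1000000 after scaling by edgeR's TMM factors, and 3 counts, below which a gene was taken as not detected, came to 0.131 to 0.203 CPM for RNA and 0.0576 to 0.127 CPM for ATAC-seq, by counting error alone. Calls came from edgeR's quasi-likelihood test, with p adjusted over all genes or peaks, and needed an adjusted p below 0.1 and a log2 fold change of 0.8 or more in size for a gene and 0.5 or more for a peak. An exact permutation test of 3 libraries against 3 could not go below a p of 0.10, so it could not add to these calls. Carm1 itself was 44.5 to 103 CPM in TKO and 50.8 to 79.1 CPM in CARM1 knockout libraries, ranges that overlapped, so counts over the whole gene did not show the deletion. Nfib fell in both mutants, from 420 to 580 CPM in TKO to 74.5 to 216 CPM in the CARM1 knockout and 83.3 to 105 CPM in the NFIB mutant.

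The libraries also differed in markers of other cell types. Their calls stand beside 20.5 and 22.3% of all genes called higher and 18.3 and 23.5% called lower in the CARM1 knockout and the NFIB mutant. The 8 fibroblast markers summed to 20.3 to 73.2 CPM in TKO, 15335 to 27006 CPM in the CARM1 knockout and 10639 to 16803 CPM in the NFIB mutant, and 8 and 7 of them were called higher. Col1a1, a collagen chain, was at most 3.85 CPM in a TKO library. The 12 neuroendocrine markers summed to 1854 to 4113 CPM in TKO. They came to 59.3, 189 and 1892 CPM in CARM1 knockout replicates 1, 2 and 3, and to 33.6 to 51.5 CPM in the NFIB mutant, where 11 were called lower. In the CARM1 knockout Uchl1 alone was called lower, or 11 without CARM1 knockout replicate 3, whose sum reached the TKO range. The 10 leukocyte markers, of which 6 were tested, summed to 3.37 to 17.97, 109 to 816 and 80.1 to 979 CPM, with 6 and 3 called higher (2 in the CARM1 knockout without TKO replicate 2, and 5 and 1 in the NFIB mutant without its replicates 1 and 2). Of 5 endothelial markers tested, 1 was higher in each mutant and 1 lower in the NFIB mutant. These markers moved with genotype in the same libraries as the genes below, and their part in the results was not tested. In such libraries, fewer cells of a type and less RNA per cell cannot be told apart. Sorting for tdTomato would remove cells in which Cre had not acted, but whether these libraries came from sorted cells was not resolved.

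Nkx2-1 and Foxa1 were the abundant members in TKO tumors, and in the NFIB mutant both were below every TKO library. How many of all genes were so in the NFIB mutant alone was not counted. In both mutants together, all 6 libraries were below every TKO library in 23.3% of all genes. Gata6 showed the opposite pattern, and was higher in every mutant library. Foxa2 varied so much between tumors of 1 genotype that no difference could be read, and Foxa3 was barely detected. Of the 4 tested, 1 was called higher and 0 lower in the CARM1 knockout, against 20.5% of all genes called higher and 18.3% called lower. In the NFIB mutant 1 was called higher and 1 lower, against 22.3 and 23.5%.

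**Figure D1:**
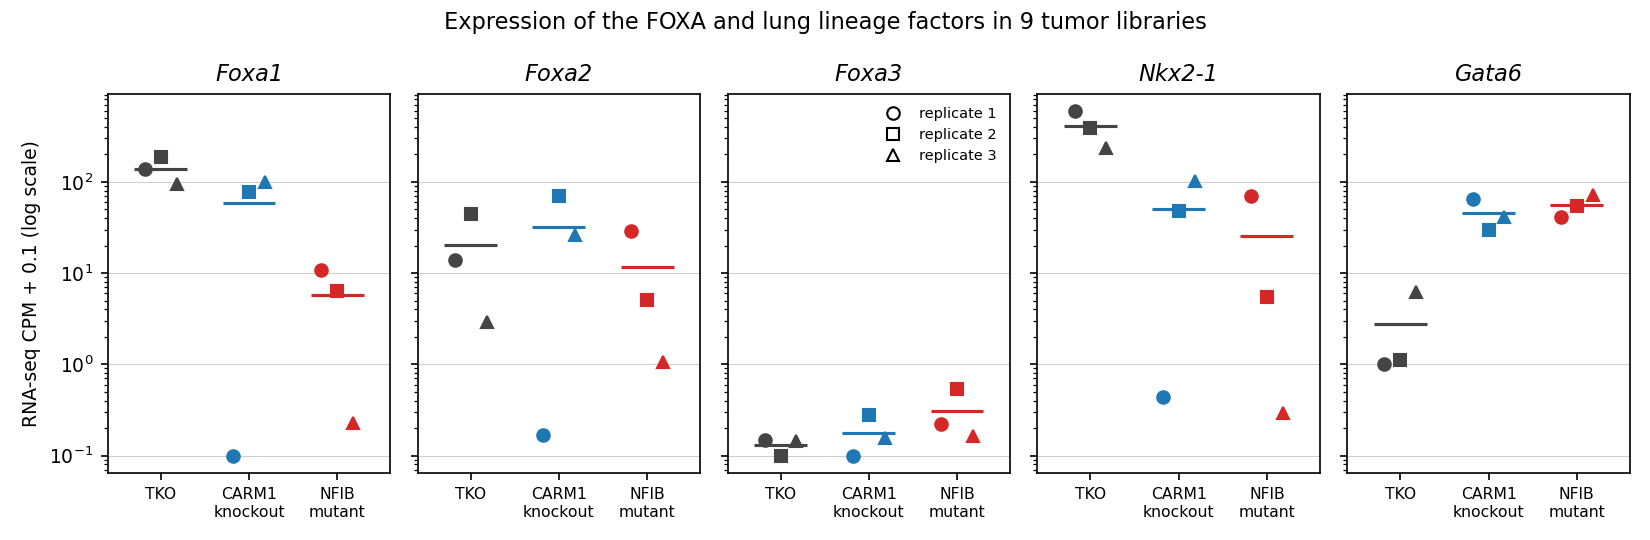
RNA-seq CPM plus an offset of 0.1 on a log axis for each of the 5 genes, with 1 point per library, marker shape for the replicate number, 3 libraries per genotype and a horizontal line at their mean. All 6 mutant libraries lie below the TKO libraries for Nkx2-1 and above them for Gata6, while Foxa1 separates only the NFIB mutant and Foxa2 overlaps between all genotypes.

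Nkx2-1 (ENSMUSG00000001496) lies on the minus strand at chr12:56531958-56536908 in GRCm38. It had 601, 386 and 236 CPM in TKO replicates 1, 2 and 3. It had 0.339, 47.9 and 102 CPM in the CARM1 knockout and 70.5, 5.30 and 0.191 CPM in the NFIB mutant. All 6 mutant libraries lay below the lowest TKO library, but they differed among themselves from the limit of detection to 102 CPM. Over all genes, 23.3% had every mutant library below every TKO library. The genotype means were 408 ± 183, 50.1 ± 50.9 and 25.3 ± 39.2 CPM (SD, n = 3 each), in the same order. With this spread neither difference was called. The log2 fold change was -3.02 (standard error 1.89, adjusted p = 0.235 from edgeR) in the CARM1 knockout and -4.01 (standard error 1.98, adjusted p = 0.132) in the NFIB mutant. In the NFIB mutant the gene passed the threshold without NFIB mutant replicate 1, the tumor that kept most Nkx2-1 (log2 -7.20, adjusted p = 0.0533), without CARM1 knockout replicate 1 (adjusted p = 0.0854) and with DESeq2 (adjusted p = 0.0319).

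Foxa1 (ENSMUSG00000035451), at chr12:57540628-57546916 on the minus strand, starts 1010008 bp from Nkx2-1 on the same chromosome. It had 137, 185 and 95.5 CPM in TKO. CARM1 knockout replicate 1 had 0 counts, while replicates 2 and 3 had 77.7 and 98.8 CPM, the latter within the TKO range. The NFIB mutant libraries had 10.6, 6.29 and 0.127 CPM, the last from 2 counts. The genotype means were 139 ± 44.8 CPM, 58.8 ± 52.0 CPM and 5.68 ± 5.28 CPM (SD, n = 3 each). Foxa1 fell 24.5-fold in the NFIB mutant (log2 fold change -4.61, standard error 1.91, adjusted p = 0.0826 from edgeR). The log2 fold change in the CARM1 knockout was -1.24 (standard error 1.66, adjusted p = 0.579). The call in the NFIB mutant was lost without most of the libraries. Its adjusted p rose to 0.132, 0.150 and 0.107 without TKO replicates 1, 2 and 3, to 0.122, 0.176 and 0.156 without NFIB mutant replicates 1, 2 and 3, and to 0.108 without CARM1 knockout replicate 2. The log2 fold change stayed between -5.43 and -4.03 in these and the other alternatives. The study itself shows FOXA among its example genes from these mice, so the choice of Foxa1 is not independent of these tumors. It reports lower FOXA1 in tumors of both mutants, citing protein blots and its overlap of genes changed in expression and accessibility. It also shows RNA-seq and ATAC-seq tracks of FOXA for each tumor. The transcript here was not called in the CARM1 knockout.

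In CARM1 knockout replicate 1, Foxa1, Foxa2, Nkx2-1 and Foxa3 had 0, 1, 5 and 0 counts. NFIB mutant replicate 3 came next, with 2, 15, 3 and 1. Thus 1 library of each mutant was nearly devoid of Foxa1, Foxa2 and Nkx2-1, and in both of these tumors Gata6 was the highest of its genotype. Foxa3 was barely detected in TKO too, so its counts here show no loss.

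Foxa2 (ENSMUSG00000037025) lies at chr2:148042877-148046969 on the minus strand. It had 13.9, 44.0 and 2.84 CPM in TKO, 0.0678, 69.7 and 25.9 CPM in the CARM1 knockout and 28.8, 4.93 and 0.953 CPM in the NFIB mutant. Tumors of every genotype overlapped. The means were 20.2 ± 21.3, 31.9 ± 35.2 and 11.6 ± 15.1 CPM (SD, n = 3 each), with each SD larger than its mean. The log2 fold change was 0.66 in the CARM1 knockout (standard error 1.76, adjusted p = 0.789 from edgeR) and -0.81 in the NFIB mutant (standard error 1.77, adjusted p = 0.728). Its sign depended on single tumors. In the CARM1 knockout it was -0.64 without CARM1 knockout replicate 2, and in the NFIB mutant it was 0.47 without TKO replicate 2.

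Foxa3 (ENSMUSG00000040891), at chr7:19013284-19023538 on the minus strand, had 1, 0 and 1 counts in TKO, 0, 3 and 1 in the CARM1 knockout and 2, 7 and 1 in the NFIB mutant. Only NFIB mutant replicate 2, at 0.432 CPM, was above 3 counts, so the gene was not tested and a difference was not detectable at this depth.

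Gata6 (ENSMUSG00000005836) lies on chromosome 18 from 11052064 to 11085635, on the plus strand. It had 0.913, 1.01 and 6.12 CPM in TKO. It had 64.2, 29.8 and 41.3 CPM in the CARM1 knockout and 41.0, 53.8 and 71.9 CPM in the NFIB mutant. The lowest mutant library was well above the highest TKO library, which was replicate 3. Over all genes, 22.3% had every mutant library above every TKO library. The means were 2.68 ± 2.98, 45.1 ± 17.5 and 55.5 ± 15.5 CPM (SD, n = 3 each). Gata6 rose 16.8-fold in the CARM1 knockout (log2 fold change 4.07, standard error 0.80, adjusted p = 0.00811 from edgeR) and 20.7-fold in the NFIB mutant (log2 fold change 4.37, standard error 0.81, adjusted p = 0.00522). The call held in all 16 alternatives of each comparison, at 3.67 to 5.58 in the CARM1 knockout and 3.96 to 5.87 in the NFIB mutant, with the upper value in each case without TKO replicate 3.

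Levels of different genes were compared per length, as RPKM (CPM per kilobase of exon). In TKO the order was Nkx2-1 at 144 ± 64.5, Foxa1 at 41.9 ± 13.5, Foxa2 at 8.53 ± 8.98, Gata6 at 0.411 ± 0.457 and Foxa3 at 0.0151 (SD, n = 3). The ranges of neighbours in this order did not overlap, and each TKO library gave the same order. In the CARM1 knockout Foxa1 (17.7 ± 15.6), Nkx2-1 (17.6 ± 17.9), Foxa2 (13.5 ± 14.9) and Gata6 (6.93 ± 2.69) overlapped in RPKM, and only Foxa3 at 0.0378 stood below Gata6 in every library. In the NFIB mutant the RPKM were 8.91 ± 13.8 for Nkx2-1, 8.54 ± 2.38 for Gata6, 4.88 ± 6.36 for Foxa2, 1.71 ± 1.59 for Foxa1 and 0.101 for Foxa3. Neighbours in that order overlapped, but Gata6 was above Foxa1 in each of the 3 libraries.

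Between the mutants none of the 4 genes was called. The CARM1 knockout was 3.37 higher on the log2 scale for Foxa1 (standard error 1.81, adjusted p = 0.617 from edgeR), 1.46 for Foxa2 (standard error 1.79), 0.99 for Nkx2-1 (standard error 1.77) and -0.30 for Gata6 (standard error 0.71). Across all genes edgeR called 0 between the mutants, while 1414 had an unadjusted p under 0.05 and DESeq2 called 535. That Foxa1 was called in 1 mutant and not in the other is therefore not shown to be a difference between them.

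Open chromatin near the members differed from gene to gene. Around Nkx2-1 all 11 peaks fell in both mutants, and around Gata6 peaks rose in both. Around Foxa1 the promoter and a peak just beyond the gene fell in both. There 4 of 13 peaks, all downstream, were called higher in the CARM1 knockout, not above the share of all peaks given below. Around Foxa2 and Foxa3 the start-site peak was not called in either mutant, although in the NFIB mutant some alternatives called each of them lower. In the CARM1 knockout 14 of the 53 peaks were called higher and 22 lower, against 38.7 and 32.4% of all peaks tested. In the NFIB mutant 12 were called higher and 28 lower, against 39.3 and 34.0%.

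The peak over the Nkx2-1 start, chr12:56532904-56539028, also covers the start of the antisense transcript Gm26973. The peak had 142, 155 and 100 CPM in TKO. It had 4.50, 28.7 and 17.5 CPM in the CARM1 knockout and 10.7, 6.95 and 1.73 CPM in the NFIB mutant. No mutant library came near the TKO range. It fell 7.82-fold in the CARM1 knockout (log2 fold change -2.97, standard error 0.67, adjusted p = 0.00321 from edgeR) and 20.5-fold in the NFIB mutant (log2 fold change -4.36, standard error 0.72, adjusted p = 0.000537). The other 10 peaks, 8 of them downstream of the gene, 1 within it and 1 upstream, were called lower in both mutants as well. The changes of the 11 peaks ranged from -4.92 to -2.42 in the CARM1 knockout and from -5.76 to -2.82 in the NFIB mutant, with medians of -3.10 and -3.79 beside 0.22 and 0.22 for all peaks. In 10 of the 11 every mutant library was below every TKO library, which held for 28.6% of all peaks. These 11 calls held under each scaling tried. The next strongest peak in TKO lay 645 bp beyond the 3′ end of the gene, chr12:56527763-56531313. It also covers the start of Sfta3-ps, a transcript of the same strand that starts 7481 bp from Nkx2-1. The peak had 44.0, 50.2 and 31.9 CPM in TKO, 1.37, 7.80 and 5.47 CPM in the CARM1 knockout and 2.03, 1.92 and 0.412 CPM in the NFIB mutant. This peak fell 8.59-fold in the CARM1 knockout and 29.1-fold in the NFIB mutant (adjusted p = 0.00201 and 0.000261 from edgeR).

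The Foxa1 start lay in a peak of 5771 bp, chr12:57541750-57547520, with 117, 127 and 93.5 CPM in TKO. It had 8.60, 38.2 and 27.9 CPM in the CARM1 knockout and 12.04, 10.3 and 7.08 CPM in the NFIB mutant. Here the CARM1 knockout libraries were all below TKO, including replicate 3, whose Foxa1 transcript lay within the TKO range, and replicate 2, whose transcript lay below it. Over all peaks, 28.6% had all 6 mutant libraries below every TKO library. The peak fell 4.51-fold in the CARM1 knockout (log2 fold change -2.17, standard error 0.43, adjusted p = 0.0015 from edgeR) and 11.5-fold in the NFIB mutant (log2 fold change -3.52, standard error 0.45, adjusted p = 0.000136). A peak just beyond the 3′ end, chr12:57538148-57540209, followed it, with 17.1 to 20.8 CPM in TKO, 2.51 to 7.47 CPM in the CARM1 knockout and 1.71 to 3.49 CPM in the NFIB mutant. Over all peaks, 38.7 and 39.3% were called higher and 32.4 and 34.0% lower in the CARM1 knockout and the NFIB mutant. Of the 13 peaks near Foxa1, 4 were called higher and 4 lower in the CARM1 knockout, and 0 and 8 in the NFIB mutant. The 4 higher ones, all downstream between chr12:57490450 and chr12:57510012, reached at most 3.42 CPM, and all 4 were low in every genotype. Scaling by library totals gave 5 higher and 3 lower in the CARM1 knockout, and 1 and 6 in the NFIB mutant, and without NFIB mutant replicate 3 there were 5 lower in that mutant.

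**Figure D2:**
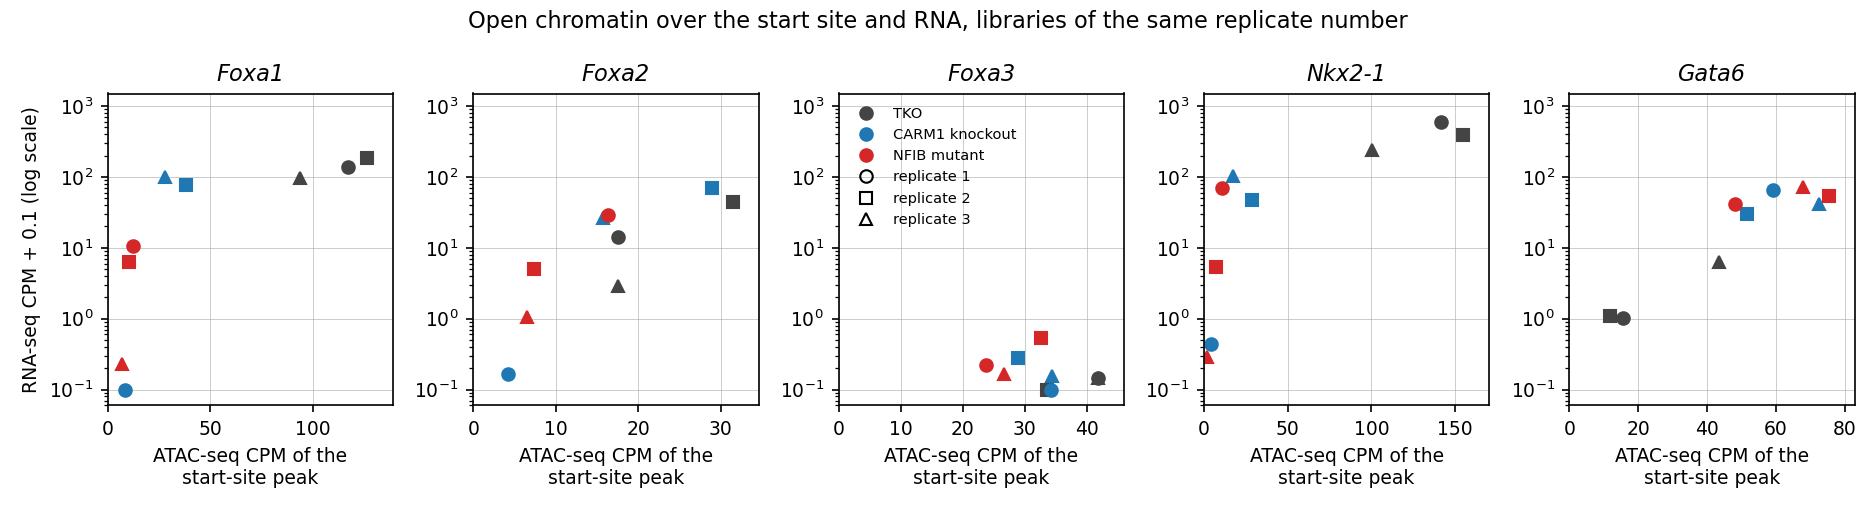
RNA-seq CPM plus 0.1 (log axis) against ATAC-seq CPM of the peak over the start site (linear axis) for the members, with 1 point per library, color for genotype and marker shape for replicate number. For Foxa1, the CARM1 knockout point of replicate 3 sits within the TKO range of RNA but at 27.9 CPM of open chromatin, below the 93.5 to 127 CPM of TKO, that of replicate 2 lies below TKO on both axes, and for Gata6 the mutant points sit to the right of and above TKO.

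The Foxa2 start-site peak, chr2:148043501-148047051, covered all 3 RefSeq starts of the gene. It had 17.6, 31.5 and 17.6 CPM in TKO, 4.21, 29.0 and 15.7 CPM in the CARM1 knockout and 16.3, 7.39 and 6.50 CPM in the NFIB mutant. The NFIB mutant libraries were all below TKO, and those of the CARM1 knockout overlapped with it. How many of all peaks were so in the NFIB mutant alone was not counted. The log2 fold change was -0.44 (adjusted p = 0.511 from edgeR) and -1.14 (standard error 0.58, adjusted p = 0.102), the latter just short of the threshold. It was past the threshold in 7 of 17 alternatives, among them DESeq2 and the fits without TKO replicate 3, without CARM1 knockout replicates 1 or 2 or without NFIB mutant replicate 1, with adjusted p down to 0.0329. Distal peaks at chr2:148013005-148014006 and chr2:148091023-148091576 rose in both mutants. The first had 0.340 to 0.446 CPM in TKO, 1.02 to 6.72 CPM in the CARM1 knockout and 1.76 to 9.16 CPM in the NFIB mutant. They were the only 2 of the 7 peaks near Foxa2 called in the CARM1 knockout. In the NFIB mutant 1 more, chr2:148023708-148023991, was called lower.

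Foxa3 had an open start site although its transcript was hardly detected. The peak, chr7:19023210-19025989, also covers the start of the divergent gene Sympk, which lies 839 bp away, and had 41.8, 33.6 and 41.8 CPM in TKO, 34.3, 28.9 and 34.4 CPM in the CARM1 knockout and 23.8, 32.7 and 26.7 CPM in the NFIB mutant. Its log2 fold change was -0.26 (adjusted p = 0.19 from edgeR) and -0.49 (adjusted p = 0.0245), under the 0.5 that a call needs. In the NFIB mutant it was called in 4 of 17 alternatives, namely DESeq2, DESeq2's size factors in edgeR and the fits without TKO replicate 2 or NFIB mutant replicate 2 (down to -0.64), while scaling by library totals gave 0.06. Sympk, a scaffold of RNA 3′ processing, had 161 to 255 CPM in all libraries and was not called. Over all peaks, 38.7 and 39.3% were called higher and 32.4 and 34.0% lower in the CARM1 knockout and the NFIB mutant. Of 14 peaks near Foxa3, 1 was called higher and 7 lower in the CARM1 knockout, and 2 and 8 in the NFIB mutant. Scaling by library totals gave 3 and 3, and 3 and 4, so the balance here was not independent of scaling.

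Gata6 was flanked by 8 peaks on chromosome 18, of which 7 were called higher in the CARM1 knockout and 8 in the NFIB mutant. In all 8, every mutant library was above every TKO library, which held for 33.1% of all peaks. The start-site peak, from 11051283 to 11056456, also covers the start of the opposite-strand transcript 1010001N08Rik. It was already open in TKO, with 15.7, 11.8 and 43.4 CPM, against 59.2, 51.5 and 72.6 CPM in the CARM1 knockout and 48.1, 75.3 and 67.8 CPM in the NFIB mutant. It rose 2.59-fold (log2 fold change 1.37, standard error 0.40, adjusted p = 0.012 from edgeR) and 2.70-fold (log2 fold change 1.43, standard error 0.40, adjusted p = 0.00923). A peak upstream of the gene, from 11015165 to 11016678, changed more, from 0.510, 0.340 and 3.63 CPM in TKO to 12.2 to 18.2 CPM and 12.6 to 19.8 CPM in the mutants. In RNA as at both peaks, TKO replicate 3 was the TKO library with the highest value. Medians over the 8 peaks were 2.75 and 3.22 beside 0.22 and 0.22 for all peaks, and under each scaling tried no peak near Gata6 was called lower.

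**Figure D3:**
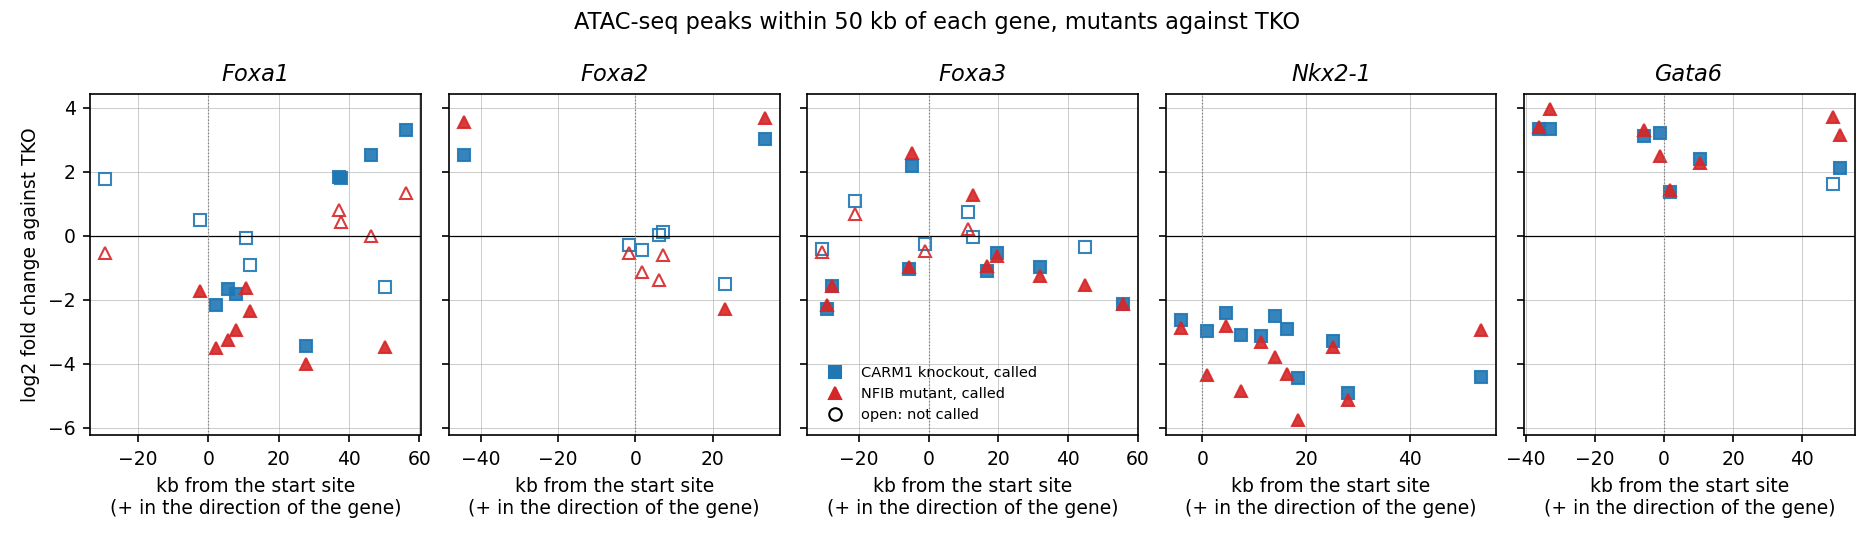
Log2 fold change against TKO (vertical axis) of each ATAC-seq peak within 50000 bp of each gene, by distance in kb from the start site in the direction of the gene, with squares for the CARM1 knockout, triangles for the NFIB mutant and open symbols where not called. All 11 peaks near Nkx2-1 are filled and negative in both mutants, the 8 near Gata6 are positive, and those near Foxa1 are negative at the start and partly positive downstream in the CARM1 knockout.

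Wider surroundings of the genes were counted as well, beside the 38.7 and 39.3% of all peaks called higher and the 32.4 and 34.0% called lower in the CARM1 knockout and the NFIB mutant. From 50000 to 1000000 bp around Foxa1, 38 of 42 peaks tested were called lower in the CARM1 knockout and 40 in the NFIB mutant, with medians of -3.43 and -3.88, whereas the 13 peaks nearer to Foxa1 had 4 higher and 4 lower in the CARM1 knockout. Around Nkx2-1 it was 59 and 65 of 83, with medians of -2.79 and -3.33. The flanks share 30 peaks. Over both flanks together, without peaks that lay within 50000 bp of either gene, 68 and 72 of 86 were called lower. Around Foxa2, in contrast, 69 and 76 of 105 flanking peaks were called higher, with medians of 2.15 and 2.62, though the start-site peak was not. Around Gata6 57 and 50 of 99 were higher and 22 and 25 lower. Around Foxa3 37 and 39 of 143 were higher and 40 and 49 lower. Whether copy number differed between the tumors over these regions was not tested.

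The middle 300 bases of the peaks near the 4 members other than Gata6 were searched for the same words. Of 45 windows, 3 held the forkhead word, 4 the nuclear factor I word, 2 CACTTGA, 10 CAAGTG and 9 the GATA word. Over all 111664 peaks, 4.79, 21.3, 5.17, 19.4 and 13.1% of windows held them. The full palindromic nuclear factor I site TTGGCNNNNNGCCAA, which can overlap the shorter word, was in 0 of the 45, and in 0.1003% of all peaks. The window below is 1 with a forkhead word in a peak that had over 5 CPM in every TKO library, on the plus strand of GRCm38.
Foxa1, downstream, chr12:57534930-57535229: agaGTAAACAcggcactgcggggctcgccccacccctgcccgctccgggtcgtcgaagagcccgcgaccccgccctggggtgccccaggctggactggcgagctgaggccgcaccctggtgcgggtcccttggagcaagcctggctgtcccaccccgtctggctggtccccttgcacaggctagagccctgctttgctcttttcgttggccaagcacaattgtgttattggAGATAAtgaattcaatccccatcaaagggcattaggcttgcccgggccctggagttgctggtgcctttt
It held the word at position 4 and a GATA word at position 232. Its peak, chr12:57534280-57535880, had 7.43, 17.2 and 9.04 CPM in TKO, 0.723, 10.96 and 6.19 CPM in the CARM1 knockout and 3.29, 2.33 and 0.962 CPM in the NFIB mutant. It fell 5.14-fold in the NFIB mutant (adjusted p = 0.0226) and was not called in the CARM1 knockout (log2 fold change -0.91, adjusted p = 0.308). Over all peaks the median log2 fold change was 0.39 and 0.35 with a forkhead word and 0.21 and 0.21 without it. It was 0.97 and 1.03 with a GATA word and 0.13 and 0.13 without. Median GC was 46.0% with the GATA word and 49.7% without. In the 110 tested peaks with a full nuclear factor I site it was -2.08 and -1.95, against 0.22 and 0.22 without. For the shorter nuclear factor I word it was -0.17 and -0.20, against 0.30 and 0.32. For CACTTGA it was -0.52 and -0.55, against 0.25 and 0.26, and for CAAGTG 0.03 and 0.04, against 0.26 and 0.26.

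Some genes next to Foxa1 and Nkx2-1 were called lower, as were 18.3 and 23.5% of all genes in the CARM1 knockout and the NFIB mutant. A further 20.5 and 22.3% of all genes were called higher. Of genes that start within 200000 bp, Ttc6, which starts 17197 bp from Foxa1, was the only one tested there. It had 15.9, 13.95 and 10.5 CPM in TKO, 0, 4.20 and 6.97 CPM in the CARM1 knockout and 0.729, 0.247 and 0 CPM in the NFIB mutant, and was called lower in the NFIB mutant (log2 fold change -5.34, adjusted p = 0.0445 from edgeR). Its order over the CARM1 knockout tumors was that of Foxa1. Of the 3 tested around Nkx2-1, Mbip (log2 fold change -2.44 and -2.70) and the antisense transcript Gm26973 (-3.95 and -5.77) were called lower in both mutants, and Pax9, a paired box factor of the foregut, was not called. Mbip had 109, 72.8 and 15.8 CPM in TKO, the last within the 6.71 to 19.3 CPM of the mutant libraries. Gm26973 starts 1565 bp from Nkx2-1 on the other strand, and since strand-specific counting is not stated its reads cannot be told apart from those of Nkx2-1. Near Gata6 the opposite-strand transcript 1010001N08Rik, 503 bp away, was called higher in both, at no more than 1.65 CPM and with the same limit. The 17 genes tested around Foxa3 had 1 higher and 3 lower in the CARM1 knockout and 4 and 2 in the NFIB mutant. The 1 tested near Foxa2, 9030622O22Rik, was not called.

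The genes most like each member over the 9 libraries were ranked by the root mean square difference of log2 CPM after centring each gene, among 15513 others. Nkx2-1 was first for Foxa1, at 1.11, followed by the bHLH-PAS factor Sim2 at 1.14 and Nexmif at 1.19. For Nkx2-1 the first were Nexmif at 0.78, the adhesion receptor Celsr2 at 0.83 and Sox2 at 1.08, with Foxa1 in rank 4. Foxa2 was nearest to Mal2 (0.98), Sorcs2 (1.11) and Hmgcll1 (1.24), and Foxa1 came in rank 187. Gata6 was nearest to Cpped1 at 0.34, Sec24d, of the COPII coat, at 0.36, and the endoplasmic reticulum protein Fkbp11 at 0.43. Foxa1 and Nkx2-1 ranked 15331 and 15370 for Gata6, near the end of the list.

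Surfactant and distal airway genes include known targets of these factors. Of the 12 tested, 1 was called higher and 0 lower in the CARM1 knockout and 5 and 0 in the NFIB mutant, with medians of 0.03 and 2.45 beside -0.03 and -0.05 for all genes, of which 20.5 and 22.3% were called higher. Scaling by library totals gave 0 higher and 1 lower in the CARM1 knockout. The 5 of the NFIB mutant became 2 without TKO replicate 2 or without NFIB mutant replicate 1, where 1 was also lower, and 3 without TKO replicates 1 or 3 or without NFIB mutant replicate 2. Sftpb, surfactant protein B, had at most 0.769 CPM in TKO and 1737, 35.9 and 0.254 CPM in NFIB mutant replicates 1, 2 and 3 (log2 fold change 10.68, adjusted p = 0.0218 from edgeR). The water channel Aqp5 followed the same order, at 502, 212 and 3.24 CPM, against 2.13 to 28.7 CPM in TKO. Replicate 1 was also the NFIB mutant tumor with the most Nkx2-1, Foxa1 and Foxa2. The 3 TKO tumors had 236 to 601 CPM of Nkx2-1 and at most 0.769 CPM of Sftpb. Abca3, the lamellar body lipid transporter, at 53.8 to 121 CPM in the 9 libraries, and the surfactant lipid enzyme Lpcat1, at 41.1 to 79.4 CPM, were not called in either mutant. The 15 genes of the list summed to 178 to 235 CPM in TKO, 157 to 257 CPM in the CARM1 knockout and 3102, 446 and 226 CPM in the NFIB mutant.

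**Figure D4:**
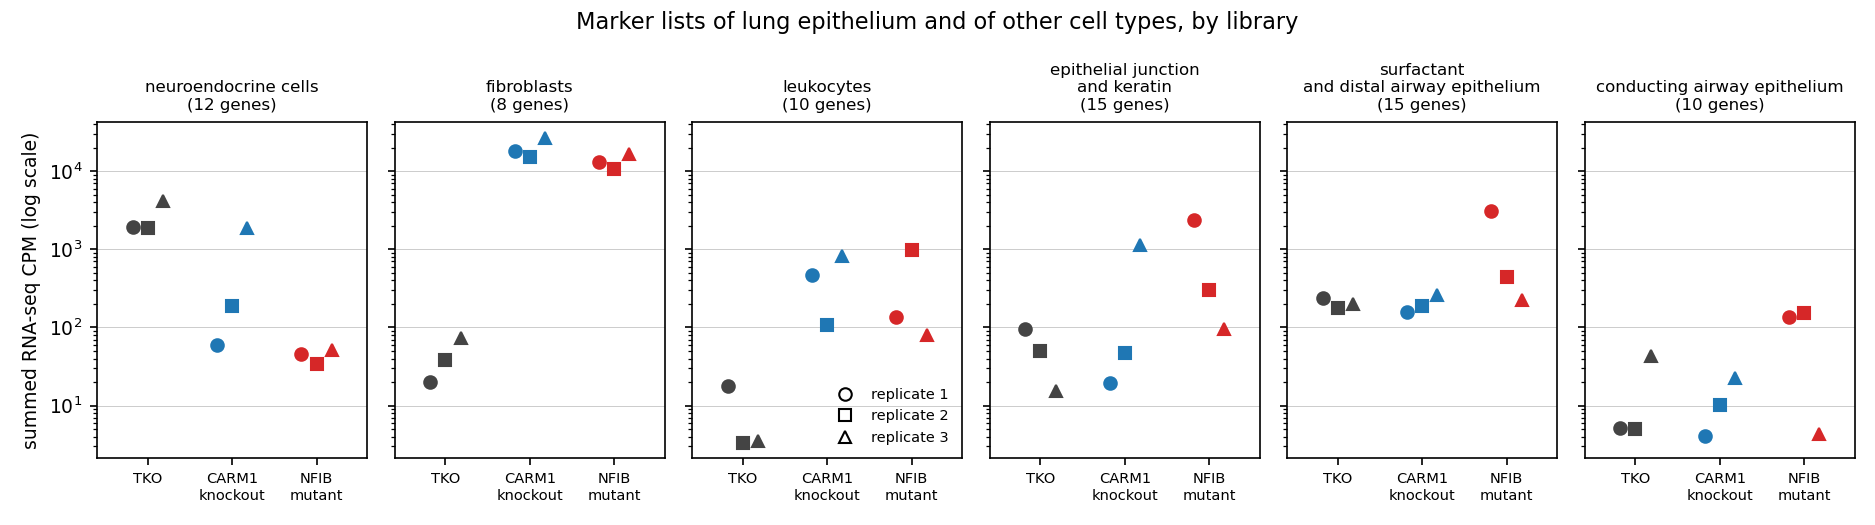
Summed RNA-seq CPM (log axis) of lists of epithelial, neuroendocrine and other cell type genes, with 1 point per library and marker shape for the replicate number. Surfactant genes reach 3102 CPM only in NFIB mutant replicate 1, neuroendocrine genes of CARM1 knockout replicate 3 sit at 1892 CPM in the TKO range, and fibroblast genes are at 10639 CPM or more in all mutant libraries.

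Of the 3 conducting airway genes tested, 1 was higher and 1 lower in the CARM1 knockout and 2 and 1 in the NFIB mutant. Over all genes, 20.5 and 22.3% were called higher and 18.3 and 23.5% lower in the CARM1 knockout and the NFIB mutant. Muc1, a surface mucin, rose in both (log2 fold change 4.24 and 3.96, adjusted p = 0.0149 and 0.0148 from edgeR), and Foxj1, the regulator of motile cilia, fell in both. The secreted mucin Muc5b rose in the NFIB mutant, with 68.1, 150 and 0.318 CPM against at most 1.73 CPM in TKO. Scgb1a1 and Trp63 had too few counts in most libraries to be tested. Of 13 junction and keratin genes tested, 2 were higher and 0 lower in the CARM1 knockout and 6 and 0 in the NFIB mutant, beside the same shares of all genes. Those of the CARM1 knockout became 0 higher without TKO replicates 2 or 3, and 1 higher and 2 lower without CARM1 knockout replicate 3. The 6 of the NFIB mutant became 3, 1 and 2 without TKO replicates 1, 2 and 3 and 2 and 3 without NFIB mutant replicates 1 and 2. The list summed to 1134 CPM in CARM1 knockout replicate 3 and 2360 CPM in NFIB mutant replicate 1, against 15.3 to 96.7 CPM in TKO. Among its genes Krt19 had 720, 54.8 and 89.3 CPM in the NFIB mutant, Krt8 442, 81.5 and 1.08 CPM, and Cdh1, which encodes E-cadherin, 232, 48.0 and 0 CPM, all called higher there. Krt7 was not called in either mutant.

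Of the other factors of foregut endoderm, 6 were tested, beside 20.5 and 22.3% of all genes called higher and 18.3 and 23.5% called lower in the CARM1 knockout and the NFIB mutant. None (0) was called in the CARM1 knockout (2 higher without TKO replicate 3), while in the NFIB mutant Sox2 fell and Gata4 rose. Sox2, a factor of the proximal airway, had 226, 237 and 208 CPM in TKO, 0.0678, 40.9 and 11.9 CPM in the CARM1 knockout and 10.03, 6.16 and 0 CPM in the NFIB mutant (log2 fold change -3.66 and -5.37, adjusted p = 0.127 and 0.0485 from edgeR). All mutant libraries were far below TKO. Over all genes, 23.3% had all 6 mutant libraries below every TKO library. Gata4 had at most 4.39 CPM in TKO and 15.2 to 33.1 CPM in the NFIB mutant (adjusted p = 0.0674), but 0 of the 6 were called higher without TKO replicates 1 or 2 or without NFIB mutant replicates 1 or 3, and DESeq2 called 2 higher and 0 lower. Sox9 and Hes1 were not called.

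Of 10 other FOX genes of the lung, 5 were higher and 1 lower in the CARM1 knockout and 4 and 1 in the NFIB mutant, with medians of 1.43 and 1.26. For these and the lists below, 20.5 and 22.3% of all genes were called higher and 18.3 and 23.5% lower in the same order. The higher ones, Foxf1, Foxf2, Foxc1, Foxc2 and Foxl1, are best known from mesenchyme, and Foxd1 was lower in both, though in the CARM1 knockout 0 of the 10 were lower when any library other than TKO replicate 3 or NFIB mutant replicate 3 was left out. Foxf1 had 0.913, 19.5 and 27.3 CPM in TKO, 225, 145 and 34.5 CPM in the CARM1 knockout (adjusted p = 0.0648 from edgeR) and 60.5, 125 and 49.2 CPM in the NFIB mutant, where it was not called (adjusted p = 0.119). Foxp1, Foxp4 and the proliferation factor Foxm1 were not called in either mutant. Of 6 genes of the GATA family and its FOG cofactors, 3 were higher and 0 lower in the CARM1 knockout and 5 and 0 in the NFIB mutant, or 3 without TKO replicate 2 or without NFIB mutant replicates 1 or 3. Besides Gata6 these included both FOG genes, Zfpm1 (log2 fold change 2.25 and 2.02) and Zfpm2 (3.27 and 3.28), and Gata2 was not called. Of 2 NKX2 genes tested, Nkx2-5, at most 4.59 CPM, was lower in the CARM1 knockout, a call lost without any of the CARM1 knockout replicates or TKO replicates 1 or 2. Of 8 factors of lung mesenchyme, 3 were higher and 2 lower, and 4 and 1. Hoxa5 went from at most 0.525 CPM in TKO to 35.7 to 88.6 CPM in the mutants and Osr1 from at most 0.350 to 13.6 to 47.4 CPM, while Hoxb5 fell in both and Tbx3 was not called. The fibroblast markers given above were high in the same 6 libraries as Gata6, and the part of those cells in its rise was not tested.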

How the data were processed

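RNA-seq and ATAC-seq counts of 9 mouse tumor libraries each were used. For RNA-seq the authors trimmed reads with Trim Galore, aligned them to mm10 with HISAT2 and deposited raw gene counts from htseq-count. For ATAC-seq the authors aligned with Bowtie2, removed duplicates with Picard, called peaks with MACS2 (the labels name Genrich) and left out putative copy number altered regions, and deposited raw counts of reads on 1 merged peak set, by featureCounts 1.6.3 per the file header. Columns named C, KO and N were read as TKO, CARM1 knockout and NFIB mutant after the legends of the study, since the files do not pair them with the labels. Summary entries (3.65 to 12.2% of reads without a gene, 3.84 to 4.50% ambiguous) were left out of totals, and no libraries held identical counts.

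The members and gene lists were chosen with earlier results of these data known. Counts were fitted with edgeR 4.0.16 in R 4.3.3 (TMM, filterByExpr, robust quasi-likelihood test, genotype as the only term, all 9 libraries, Benjamini-Hochberg over 15514 genes or 111116 peaks). The fit was tested on simulated data. Calls used the thresholds of the Methods. Tables were made in Python 3.11.15 with pandas 2.3.3, numpy 2.4.6 and pysam 0.24.0 and plots with matplotlib 3.10.9. Gene positions came from an annotation of GRCm38 and promoters from a RefSeq table. Peaks were assigned to a gene within 50000 bp of its body. Named were all members, the 4 genes of each list with the highest mean CPM, the 3 genes most like each member (prior count 2), neighbours within 200000 bp, and peaks at starts or highest in TKO or the mutants. Other peaks and genes given were picked after their values were seen. Libraries of equal number did not deviate together across genotypes (r from -0.297 to 0.118 in RNA-seq and -0.142 to 0.118 in ATAC-seq), so numbers were not used as pairs. RNA-seq and start-site ATAC-seq deviations of the same tumor number and genotype correlated at 0.480 to 0.685 across 13164 genes, against -0.470 to 0.0628 for other numbers. The Results say that both assays used the same biopsies. Alternatives were DESeq2 1.42.0, other scalings, filters and distances, a fit of only the genotypes compared, a replicate block and leaving out each library. Protein sequences were not used here, and 1 marker gene and 1 peak sequence are not reported here.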

Additional observations from a re-analysis of the deposited data

How the results depend on the processing

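Gata6 kept its call in both mutants under every alternative, and the 11 peaks near Nkx2-1 kept theirs unless the filter removed them. Of the 5 members, 2 were called in the NFIB mutant, which became 1 when every feature with a count was tested, with at least 10 counts in every library and with the replicate number as a block. Leaving out 1 library gave 1 to 3, the upper value without CARM1 knockout replicate 1, where Nkx2-1 was called too. Foxa1 was the call lost, since its adjusted p was 0.0826 in the main setting, 0.147 with every feature, 0.151 under the block, and the filter on 10 counts removed it. The block changed no other count of members or nearby peaks by over 1.5 times. Of the 53 peaks, 36 calls in the CARM1 knockout became 16 and 40 in the NFIB mutant became 19 with at least 10 counts in every library, where fewer peaks were tested, and 21 lay within 20000 bp in the CARM1 knockout. The peak at chr7:19002234-19005838 near Foxa3 changed sign with scaling by library totals, from -0.54 to 0.0422 in the CARM1 knockout, and the cause was not tested. Over all features that filter took the calls from 7099 to 4520 genes in the NFIB mutant, from 78985 to 38831 peaks in the CARM1 knockout and from 81432 to 40676 in the NFIB mutant. Scaling by library totals shifted the median log2 fold change by -0.27 and -0.33 for genes and by 0.57 and 0.57 for peaks. The share of calls that were higher then went from 52.9 to 39.4% and from 48.7 to 35.8% for genes, and from 54.4 to 65.9% and from 53.6 to 64.3% for peaks. Depth taken from start sites of uniformly expressed genes shifted peaks by 0.40 and 0.48. Single genes and peaks kept their side of the threshold in 1447 cases, passed it in 14 and lost it in 29. In 1 case, the Foxa3 peak above, a called change took the other sign. The 1447 include results that were not called, such as Foxa2, whose sign could differ between alternatives. Between the mutants edgeR called 0 peaks, with 6813 at an unadjusted p under 0.05, where DESeq2 called 1060. Depth limits Foxa3 and the peaks under 1 CPM, and spread between tumors limits Foxa2 and Nkx2-1.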
